A study of Mus musculus with 32 samples.

Results

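Tropomyosins are coiled-coil proteins that lie along actin filaments, titin is the giant spring of the sarcomere, and Ldb3, Pdlim3 and Pdlim5 are PDZ-LIM proteins of the Z-disc, where thin filaments of neighbouring sarcomeres are anchored. Most of these genes make several proteins by alternative splicing. RBM20 and RBM24 are RNA-binding proteins that direct such splicing in striated muscle, and titin is the best-known target of RBM20. The transcripts of 10 genes are described here: the tropomyosins Tpm1, Tpm2, Tpm3 and Tpm4, titin (Ttn), the Z-disc genes Ldb3, Pdlim3 and Pdlim5, and the splicing regulators Rbm20 and Rbm24. The genes were listed by name, and all their transcript rows were taken. Of 103 transcripts annotated for them in GENCODE mouse M21, 101 were in the table of 147493 transcripts, 9 of those were at 0 in every library, and 26 held at least 10% of their gene's level in at least 1 group in which the gene averaged 5 TPM or more and are named here.

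The study compared wild-type (WT) male C57BL/6J mice with mice labelled Mut, described as a knockout of SMIM30, a gene for a small membrane protein. Skeletal muscle, heart, liver and brown fat (BAT) were each collected from 4 mice per genotype, which gave 8 groups of 4 and 32 libraries of total RNA. Nothing else was said to differ between the groups; ages and the altered part of the gene were not given, and no label tied libraries of different tissues to 1 mouse. The unit is TPM, an estimate of abundance per unit of transcript length that sums to the same total in each library, so gene levels are sums over transcripts and depth is unknown. A difference was called when its Benjamini-Hochberg adjusted p from limma, a linear model fitted across all features, was under 0.05.

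The targeted gene, annotated as 2610001J05Rik, was still detected in every Mut library. It stood at 32.7 to 37.6 TPM in WT heart against 17.8 to 27.4 in Mut heart, and at 32.9 to 35.7 in WT muscle against 24.3 to 27.3 in Mut muscle. In BAT the ranges overlapped, at 23.5 to 32.3 against 27.3 to 33.0 TPM, as they did in liver, at 18.6 to 26.4 against 17.3 to 25.6. The altered part of the gene is not known here, so its RNA level does not check the genotype labels. In every tissue the defining markers of the labelled tissue were present. The 11 fast-fibre markers were also detected outside muscle, at a median of 1.56% of the WT muscle level in WT BAT, 1.41% in WT heart and 1.53% in WT liver, and the 8 ventricular markers stood at a median of 1.33% of the WT heart level in WT BAT and 1.58% in WT liver. Member levels in BAT and liver are therefore set beside these percentages below. In whole tissue, fewer cells of a type and less RNA per cell cannot be told apart.

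The sequences on which the isoform differences turn are the exclusive internal exons of the tropomyosins and the cassette exons of the Z-disc genes, all annotated as coding. Transcript names, exons and GRCm38 coordinates are those of GENCODE M21, and the transcript versions in the table differ from that release, so the submitters' models may differ in detail. Tpm3 has a pair of exclusive exons of 76 bases on the plus strand, at chr3:90088401-90088476 in Tpm3-201 and at chr3:90089048-90089123 in Tpm3-205. Tpm2 has the corresponding pair on the minus strand, at chr4:43518644-43518719 in Tpm2-202 and at chr4:43519003-43519078 in Tpm2-203. The exon at chr9:67031951-67032026, minus strand, is that of Tpm1-205, the main Tpm1 transcript. They are printed 5′ to 3′ in the sense of the transcript. Capitals mark the positions at which the 2 exons of a pair differ.
Tpm3-201: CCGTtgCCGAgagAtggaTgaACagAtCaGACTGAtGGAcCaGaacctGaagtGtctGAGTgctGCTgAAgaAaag
Tpm3-205: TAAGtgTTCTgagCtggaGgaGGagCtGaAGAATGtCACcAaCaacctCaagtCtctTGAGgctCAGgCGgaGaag
Tpm2-203: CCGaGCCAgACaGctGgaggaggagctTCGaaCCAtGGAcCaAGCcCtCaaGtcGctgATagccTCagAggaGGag
Tpm2-202: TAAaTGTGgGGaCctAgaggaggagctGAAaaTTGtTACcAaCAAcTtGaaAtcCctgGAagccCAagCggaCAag
Tpm1-205: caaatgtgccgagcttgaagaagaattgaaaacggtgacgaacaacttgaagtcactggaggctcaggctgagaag

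The Tpm3 exons were identical at 39 of 76 positions (51.3%) and the Tpm2 exons at 41 (53.9%). Across genes, the Tpm3-205 exon matched the Tpm2-202 exon at 76.3% of positions and the Tpm1-205 exon at 75.0%, and the Tpm2-202 and Tpm1-205 exons matched each other at 73.7%. The Tpm3-201 exon was closer to that of Tpm2-203, at 61.8%, than to that of Tpm2-202, at 50.0%. The exons thus fell into 2 sequence groups across the 3 genes, with Tpm1-205, Tpm2-202 and Tpm3-205 in 1 group.

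For the Z-disc genes, the exons shown differed in inclusion between heart and muscle; those of Ldb3 and Pdlim5 were largely skipped in 1 of the tissues, and those of Pdlim3 only in part. Those of Ldb3-207 lie on the minus strand at chr14:34572990-34573012 (23 bases) and chr14:34569713-34569727 (15 bases). Those of Pdlim5 lie on the minus strand at chr3:142312123-142312214 in Pdlim5-205 (92 bases) and chr3:142309528-142309544 in Pdlim5-203 (17 bases). Those of Pdlim3 lie on the plus strand at chr8:45908469-45908656 in Pdlim3-201 (188 bases) and chr8:45909019-45909086 in Pdlim3-203 (68 bases). They are in lower case throughout because no part was singled out, and the first Ldb3 line is the exon of 23 bases.
Ldb3-207: gtggtagccaattctccagccaa
Ldb3-207: ggcgtctccgctggc
Pdlim5-205: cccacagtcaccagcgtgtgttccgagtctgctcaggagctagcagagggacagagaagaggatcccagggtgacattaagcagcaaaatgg
Pdlim5-203: aaaacacacgtgacaaa
Pdlim3-201: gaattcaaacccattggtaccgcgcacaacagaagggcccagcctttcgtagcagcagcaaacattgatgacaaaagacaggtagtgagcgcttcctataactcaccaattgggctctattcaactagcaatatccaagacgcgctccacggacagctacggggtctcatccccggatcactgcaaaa
Pdlim3-203: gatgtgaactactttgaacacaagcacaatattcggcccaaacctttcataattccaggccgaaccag

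Of the 10 genes, 8 had their highest WT mean in skeletal muscle, Tpm4 had it in BAT and Rbm20 in heart. Between WT heart and WT muscle, 9 of the 10 genes were called, 2 higher in heart and 7 lower, where 63.2% of the 14310 genes tested were called, 29% higher and 34.1% lower. All 10 were called between BAT and muscle (background 71.4%) and between liver and muscle (78.7%), 8 between BAT and heart (61.7%), 9 between heart and liver (78%) and 3 between BAT and liver (71.1%). A call between tissues was thus the usual outcome for a gene, and these comparisons share WT libraries.

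Tpm1, the main tropomyosin of fast fibres and heart, was the most abundant member. It measured 17925, 15074, 17875 and 20545 TPM in WT muscle and 5723, 6315, 6155 and 6396 in WT heart. The heart libraries did not overlap the muscle libraries and their mean was 34.4% of the muscle mean (log2 difference -1.53, SE 0.0873, adjusted p = 1.12e-10, limma). WT BAT (352 ± 25.4, SD, n = 4) and liver (366 ± 20.8) held 1.97% and 2.05% of the muscle mean and were not called different from each other (adjusted p = 0.567, limma).

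Tpm2, the beta-tropomyosin of skeletal and smooth muscle, had the largest gap between the striated tissues. WT muscle libraries measured 1746, 2799, 2569 and 2145 TPM and WT heart libraries 51.9, 43.0, 37.9 and 45.7. Heart was lower by 5.65 on the log2 scale (SE 0.13, adjusted p = 5.75e-16, limma). Heart, BAT (52.6 ± 2.04, SD, n = 4) and liver (49.4 ± 6.26) stood at 1.93%, 2.27% and 2.13% of muscle, and none of the 3 was called different from another. These percentages lie close to those of the fast-fibre markers in the same tissues; the part that muscle RNA had in them was not tested.

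Tpm3 encodes the slow-fibre tropomyosin in muscle and short cytoplasmic tropomyosins in other cells. Its WT muscle libraries measured 167, 194, 249 and 165 TPM, above every other WT library. Liver (44.3 ± 3.71, SD, n = 4) and BAT (38.5 ± 7.73) were not called different (adjusted p = 0.18, limma), except when the BAT WT 3 library was left out (adjusted p = 0.0418). Heart was the lowest at 25.4 ± 2.24, with a log2 difference from muscle of -2.87 (SE 0.138, adjusted p = 1.18e-11, limma).

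Tpm4, a cytoplasmic tropomyosin of non-muscle cells, was not highest in muscle. BAT libraries spanned 31.2 to 64.5 TPM and heart libraries 37.9 to 43.2, without a call between them (adjusted p = 0.603, limma), and their order turned after median-ratio scaling or without the BAT WT 3 library. Muscle followed at 16.9 ± 1.50 (SD, n = 4) and liver at 11.4 ± 0.961, and heart exceeded muscle by 1.20 on the log2 scale (SE 0.168, adjusted p = 8.68e-06, limma). Tpm4 was the only tropomyosin of the 4 with a higher level in heart than in muscle.

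Ttn measured 185, 179, 202 and 195 TPM in WT muscle and 46.9, 52.1, 47.5 and 51.7 in WT heart, a log2 difference of -1.92 (SE 0.0639, adjusted p = 7.31e-14, limma). BAT and liver held 3.05 ± 0.0818 and 3.18 ± 0.159 TPM (SD, n = 4 each). These were 1.60% and 1.67% of the muscle mean. Ldb3, whose protein binds alpha-actinin, was also higher in muscle than in heart: 892 ± 45.5 TPM in muscle, 339.6 ± 32.3 in heart, 19.3 ± 1.33 in BAT and 17.2 ± 0.599 in liver. The BAT and liver levels were 2.16% and 1.93% of muscle and were not called different (adjusted p = 0.0756, limma), except without the BAT WT 1 library (adjusted p = 0.0391).

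Pdlim3, the actinin-associated LIM protein, was 4.06 lower in heart than in muscle on the log2 scale (SE 0.136, adjusted p = 7.73e-14, limma). Its WT heart libraries measured 13.4, 21.7, 20.8 and 24.8 TPM and its WT muscle libraries 344, 351, 311 and 377. BAT and liver held 6.78 ± 0.593 and 6.38 ± 0.588 TPM (SD, n = 4 each), 1.96% and 1.85% of muscle. Pdlim5, the enigma homolog, differed far less. It measured 274, 320.0, 318 and 317 TPM in WT heart and 436, 406, 393 and 406 in WT muscle, and the log2 difference of -0.42 was called (SE 0.113, adjusted p = 0.00407, limma). BAT held 20.9 ± 4.63 TPM of Pdlim5 and liver 26.3 ± 1.63 (SD, n = 4 each), a difference that was called (adjusted p = 0.014, limma) but not without BAT WT 1 (adjusted p = 0.0586) or BAT WT 2 (adjusted p = 0.0557).

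The 2 splicing regulators differed in their order. Rbm20 measured 42.4, 52.0, 48.4 and 50.6 TPM in WT heart and 23.0, 19.3, 22.0 and 25.2 in WT muscle, and was higher in heart by 1.08 on the log2 scale (SE 0.0903, adjusted p = 1.77e-08, limma). It held 2.04 ± 0.23 TPM in liver and 1.09 ± 0.0601 in BAT (SD, n = 4 each), 4.22% and 2.26% of heart. Rbm24 measured 65.1, 87.4, 94.1 and 105 TPM in WT heart and 109, 106, 95.4 and 96.7 in WT muscle. These groups overlapped and Rbm24 was not called (log2 difference -0.23, 95% interval -0.49 to 0.03, adjusted p = 0.112, limma), although it was without the Heart WT 4 library (adjusted p = 0.0322). BAT and liver held 2.43 ± 0.289 and 2.81 ± 0.407 TPM of Rbm24 (SD, n = 4 each), 2.77% and 3.21% of heart.

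**Figure D1:**
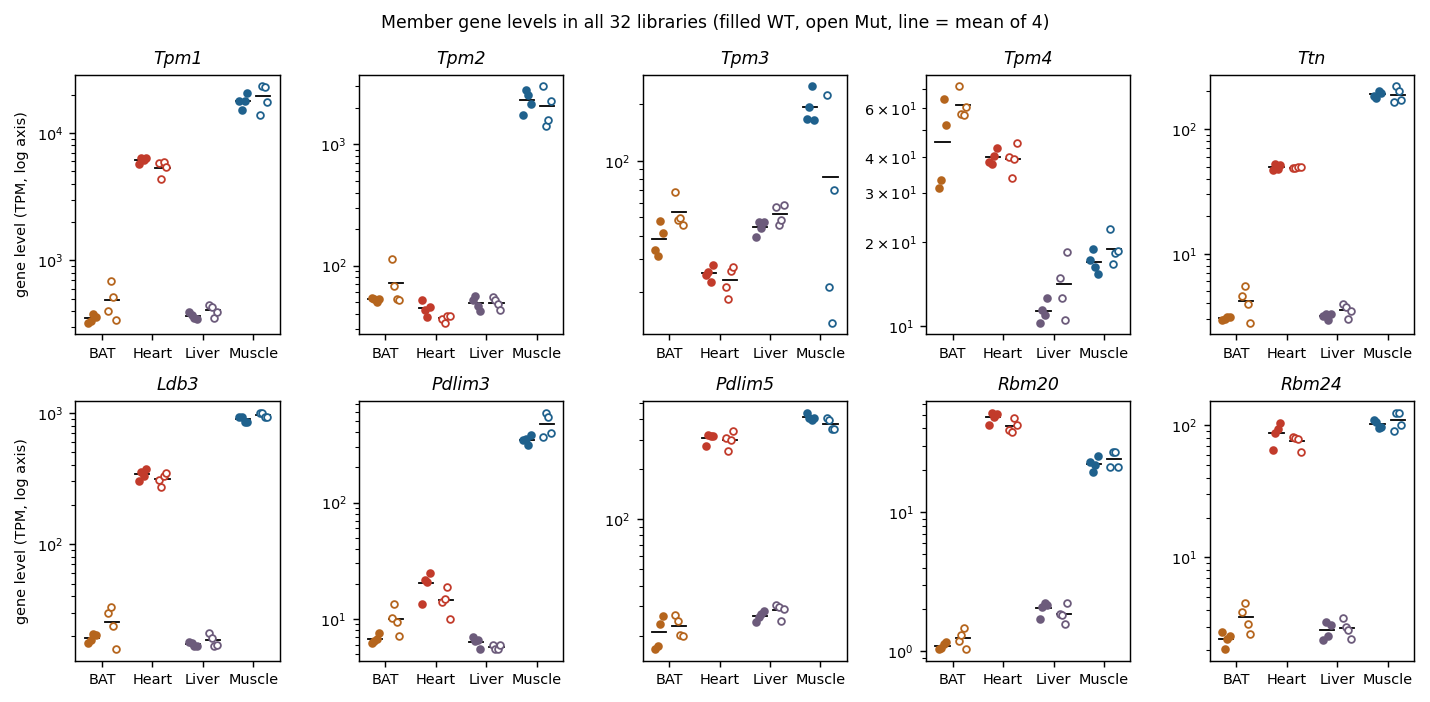
Levels of the 10 genes in TPM on log axes, 1 panel a gene; each point is 1 library (filled WT, open Mut) and each line the mean of 4. Muscle is highest for 8 genes, heart for Rbm20 (48.3 TPM in WT) and BAT for Tpm4 (45.3 TPM in WT), and the Mut muscle libraries spread from 13.8 to 224 TPM for Tpm3.

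The shares of transcripts within a gene differed between WT heart and WT muscle for most members. The 27 member transcripts tested belonged to genes that averaged at least 5 TPM in both tissues. Their mean share was at least 5% in 1 tissue and at most 95% in 1. Of these transcripts, 22 were called, 13 higher and 9 lower in heart, where 23.1% of 15338 transcripts tested were called, 11.9% higher and 11.2% lower. Exon inclusion was computed as the summed TPM of transcripts that hold an exon over that of all transcripts that hold it or span its position without it. Of 23 member exons, 21 were called, 10 higher and 11 lower, against 27% of 4625 exons tested, 9.04% higher and 18% lower. The exons of 1 gene share transcripts and are not independent of each other. Of the 21 called exons, 8 had a length divisible by 3, as had 9 of all 23 member exons tested.

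Ldb3 changed its main transcript. Ldb3-203, a short form of 327 codons, held 64.7%, 65.5%, 62.8% and 64.7% of the gene in the WT heart libraries and 0.127% on average in WT muscle. Ldb3-207, a short form of 288 codons, held 76.9%, 77.3%, 76.2% and 76.8% in the WT muscle libraries and 8.8%, 7.2%, 7.4% and 6.5% in heart (adjusted p = 1.97e-07 for Ldb3-203 and 1.32e-07 for Ldb3-207, limma). In TPM, Ldb3-203 stood at 219 ± 22.4 in heart and 1.12 ± 0.41 in muscle, and Ldb3-207 at 25.2 ± 1.06 and 685 ± 38.1 (SD, n = 4).

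The long Ldb3 forms, which carry the LIM domains, changed in the same way. Ldb3-201, of 723 codons, held 23.5 ± 1.70% of the gene in heart and 1.65 ± 0.29% in muscle (SD, n = 4), and Ldb3-205, of 684 codons, held 2.93 ± 0.54% in heart and 13.7 ± 0.51% in muscle. The underlying exons were exclusive. An exon of 359 bases was included at 89.3 ± 1.36% in heart and 1.80 ± 0.25% in muscle (SD, n = 4), while the exons of 23 and 204 bases were included at 10.7 ± 1.36% in heart and 98.2 ± 0.25% in muscle (adjusted p = 3.23e-09 for each, limma). The exon of 15 bases printed above followed them, at 10.5% in heart and 95.3% in muscle. At these 4 exons every WT heart library lay on the other side of the scale from every WT muscle library.

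Pdlim5 likewise had a heart form and a muscle form. Pdlim5-205, of 239 codons, held 60.6%, 62.0%, 61.7% and 64.1% of the gene in WT heart and 1.09 ± 0.19% in muscle (SD, n = 4). Pdlim5-203, of 214 codons, held 92.5%, 92.3%, 90.0% and 91.2% in WT muscle and 15.2 ± 2.31% in heart. Pdlim5-204, of 234 codons, was at 12.2 ± 0.53% in heart and 0.106% in muscle. All 3 differences were called (adjusted p = 1.32e-07, 3.23e-07 and 1.01e-05, limma). The 92-base exon of Pdlim5-205 was included at 83.4 ± 2.29% in heart and 1.53 ± 0.26% in muscle, and the 17-base exon of Pdlim5-203 at 15.2 ± 2.31% and 91.5 ± 1.16% (SD, n = 4). An exon of 15 bases differed less, at 77.3% in heart and 92.6% in muscle, and an adjoining exon of 18 bases was not called (89.5% and 92.7%, log2 ratio difference 95% interval -1.13 to -0.02, adjusted p = 0.116, limma).

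The long Pdlim5 form of 591 codons, Pdlim5-201, which carries the LIM domains, was a minor form in both striated tissues. It held 4.71 ± 0.56% of Pdlim5 in WT heart and 1.70 ± 0.18% in WT muscle, but 52.3 ± 3.56% in WT BAT and 63.3 ± 1.40% in WT liver (SD, n = 4). In TPM it spanned only 6.95 in muscle to 16.6 in liver. Pdlim5-203 stood at 6.21 TPM in BAT and 5.85 in liver, 1.65% and 1.56% of its muscle level, and Pdlim5-205 at 1.11% and 1.37% of its heart level. These percentages are close to those of the fast-fibre and ventricular markers in BAT and liver, and the part of muscle or heart RNA in them was not tested.

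Pdlim3 exchanged exons between heart and muscle less completely. Pdlim3-201, of 316 codons, held 55.6%, 60.1%, 55.6% and 65.7% of the gene in WT heart and 27.8 ± 0.56% in muscle (SD, n = 4). Pdlim3-203, of 364 codons, held 30.4 ± 4.76% in heart and 70.6 ± 0.57% in muscle. The 188-base exon was included at 66.1% in heart and 28.2% in muscle and the 68-base exon at 33.9% and 71.8% (adjusted p = 1.90e-05 and 1.92e-05, limma). The level of Pdlim3 in heart was low, at 20.2 TPM against 346 in muscle, so both forms were lower there in TPM: Pdlim3-201 at 12.1 against 95.9 and Pdlim3-203 at 5.97 against 244. Fast-fibre markers in WT heart had a median of 1.41% of the WT muscle level. How far muscle RNA entered the heart shares of Pdlim3 was not tested. A transcript annotated with a retained intron, Pdlim3-202, held 9.42% in heart and 1.55% in muscle (adjusted p = 1.40e-04, limma).

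**Figure D2:**
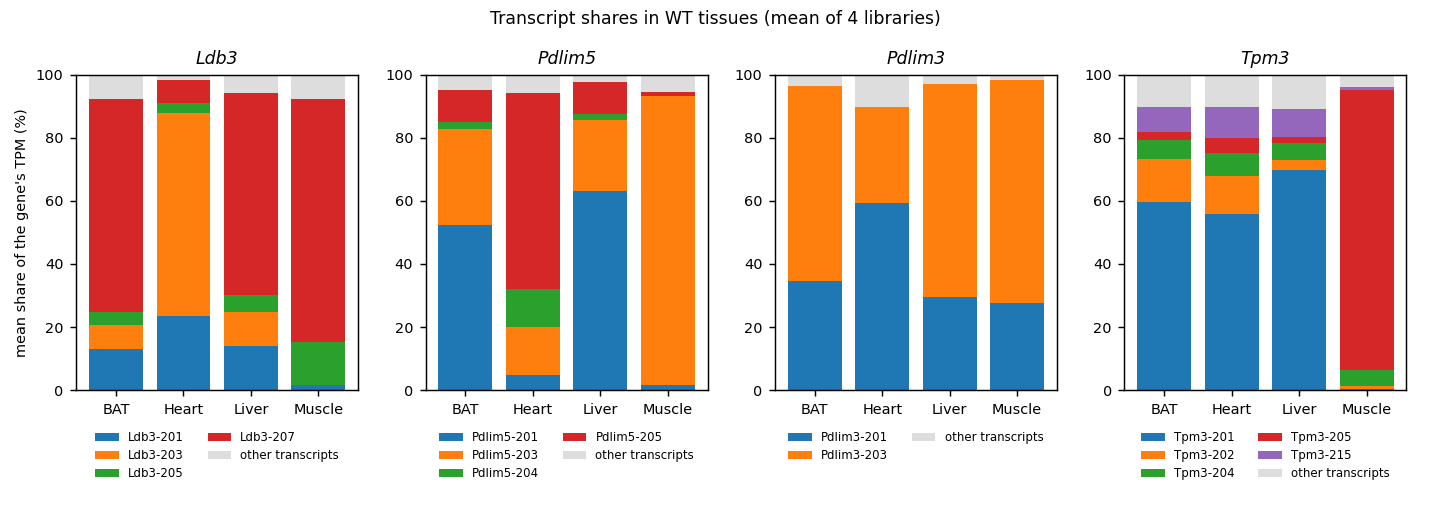
Mean share of each named transcript in its gene's TPM (%), stacked, for Ldb3, Pdlim5, Pdlim3 and Tpm3 in the 4 WT tissues (mean of 4 libraries); grey is the sum of unnamed transcripts. Ldb3-203 (64.4%) and Pdlim5-205 (62.1%) fill most of the heart bars, Ldb3-207 (76.8%), Pdlim5-203 (91.5%) and Tpm3-205 (88.7%) most of the muscle bars.

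Tpm3 had different main transcripts in muscle and in the other tissues. Tpm3-205, with the long reading frame of 284 codons that is typical of muscle tropomyosins, held 88.8%, 89.6%, 90.5% and 85.8% of the gene in WT muscle. Its share was 4.65 ± 0.41% in heart, 2.29 ± 1.92% in BAT and 1.99 ± 1.27% in liver (SD, n = 4). Its level in those tissues, 0.80 to 1.18 TPM on average, was 0.464% to 0.684% of the muscle level, below the percentages of the fast-fibre markers. As the muscle form of Tpm3 belongs to slow fibres, those markers are not a like measure. The slow-fibre genes Myh7, Tnnt1 and Tnni1 averaged 143, 211 and 105 TPM in WT muscle. They averaged 2.37, 2.74 and 1.14 TPM in WT BAT and 2.18, 3.86 and 0.924 in WT liver.

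Tpm3-201, a short form of 248 codons, held 55.8 ± 4.84% of Tpm3 in heart, 59.7 ± 7.00% in BAT and 69.8 ± 2.51% in liver but 0.464 ± 0.18% in muscle (SD, n = 4). The heart and muscle shares differed for Tpm3-205 (adjusted p = 1.32e-07, limma) and for Tpm3-201 (adjusted p = 1.26e-06). In heart, the 76-base exon of Tpm3-201 printed above was included at 77.2% and that of Tpm3-205 at 20.3%. In muscle the same exons stood at 5.75% and 93.3%. A second exon of Tpm3-205, of 79 bases, followed with 20.3% in heart and 93.9% in muscle. Part of the heart inclusion came from Tpm3-202, a short form that holds the Tpm3-205 exons, which took 12.0% of the gene in heart and 1.05% in muscle. Of the other named forms, Tpm3-204, of 285 codons, held 7.30% and 5.03% without a call (adjusted p = 0.146, limma), and Tpm3-215, annotated with a retained intron, held 10.1% and 0.749%.

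Tpm2 differed less in its exon pair than Tpm3. Tpm2-202 and Tpm2-203 both have 284 codons and held 46.6 ± 3.39% and 48.9 ± 2.93% of the gene in WT heart, and 58.1 ± 1.74% and 38.9 ± 1.90% in WT muscle (SD, n = 4). The differences of -11.5 and 10.0 percentage points were called (adjusted p = 0.00734 and 0.0108, limma). In WT muscle this made 1344 TPM of Tpm2-202 and 902 of Tpm2-203. The exon of the Tpm2-202 group, which resembles that of Tpm3-205, was thus the more included one in muscle in both genes, at 59.9% in Tpm2 and 93.3% in Tpm3. Tpm2 itself averaged only 44.7 TPM in WT heart against 2315 in WT muscle. Fast-fibre markers in WT heart had a median of 1.41% of the WT muscle level, and the part of muscle RNA in the heart shares of Tpm2 was not tested.

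Tpm1 and Tpm4 had 1 main transcript each. Tpm1-205, of 284 codons, held 98.0 ± 0.22% of Tpm1 in WT heart and 97.7 ± 0.25% in WT muscle (SD, n = 4), outside the range tested. It was also the main form in BAT (85.6 ± 2.48%) and liver (92.9 ± 0.31%), where its level was 1.72% and 1.95% of that in muscle, near the fast-fibre markers. The remaining Tpm1 in these tissues included Tpm1-211, of 248 codons, at 16.8 to 32.7 TPM in WT BAT, and Tpm1-213, of 284 codons, at 7.01 to 10.5 TPM in WT liver. Tpm1-211 did not exceed 0.108 TPM in any WT heart or muscle library, and both fell under the 10% share that names a transcript. Tpm4-201, of 248 codons, made up at least 99.5% of Tpm4 on average in each WT tissue.

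The shares of the 2 named Ttn transcripts moved little between heart and muscle. Of the 25 annotated Ttn transcripts, 24 were in the data. Ttn-205, with 313 exons and 33467 codons, was missing. Ttn-201, a large form with 192 exons and 26886 codons but not the longest annotated (Ttn-203 has 347 exons and 35213 codons), held 82.5%, 82.4%, 81.1% and 80.3% in WT heart and 86.6%, 85.8%, 87.6% and 86.3% in WT muscle (adjusted p = 0.0143, limma). Ttn-202, with 45 exons and 5508 codons, held 12.5 ± 1.14% and 9.05 ± 0.61% (SD, n = 4; adjusted p = 0.0308). The Ttn-202 call was lost without any 1 of 6 libraries, Heart WT 2, 3 or 4 and Muscle WT 1, 3 or 4 (adjusted p 0.057 to 0.0785). None of the 161 alternative Ttn exons that the annotation allows entered the inclusion test, because none lay within 5 to 95% inclusion. The shares were taken over all 24 Ttn transcripts in the data, which include short fragments and retained-intron models. Ttn-202 itself covers only part of the gene. How reads were divided among overlapping models was not tested, and the cassette usage for which titin is known was not resolved.

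The isoform shares of the regulators differed in part. The full-length Rbm20-203, of 1199 codons, held 27.4% in WT heart and 25.6% in WT muscle and was not called (log2 ratio difference 95% interval -0.21 to 0.37, adjusted p = 0.682, limma). Rbm20-201, annotated as a target of nonsense-mediated decay, held 59.3 ± 2.29% in heart and 46.2 ± 2.92% in muscle, and Rbm20-202, a fragment of 2 exons, 13.3 ± 2.03% and 28.2 ± 4.71% (SD, n = 4; adjusted p = 0.00398 and 0.00199). Among protein-coding transcripts alone, Rbm20-203 was called higher in heart (adjusted p = 0.00396, limma). Only Rbm20-202 and Rbm20-203 remain in that setting, so this call is that of the Rbm20-202 fragment with its sign turned. Rbm24-201, the only coding Rbm24 transcript, held 85.5% and 81.9% without a call (log2 ratio difference 95% interval 0.02 to 0.74, adjusted p = 0.122). The non-coding Rbm24-202 held 6.12% in heart and 9.27% in muscle (adjusted p = 0.0456). That call was lost when any 1 of the 8 libraries was left out (adjusted p 0.0622 to 0.109). An Rbm24 exon of 113 bases, at 10.5% in heart and 14.6% in muscle, was called (adjusted p = 0.0385) and lost without Heart WT 1 or 3 or any 1 Muscle WT library (adjusted p 0.051 to 0.0866).

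**Figure D3:**
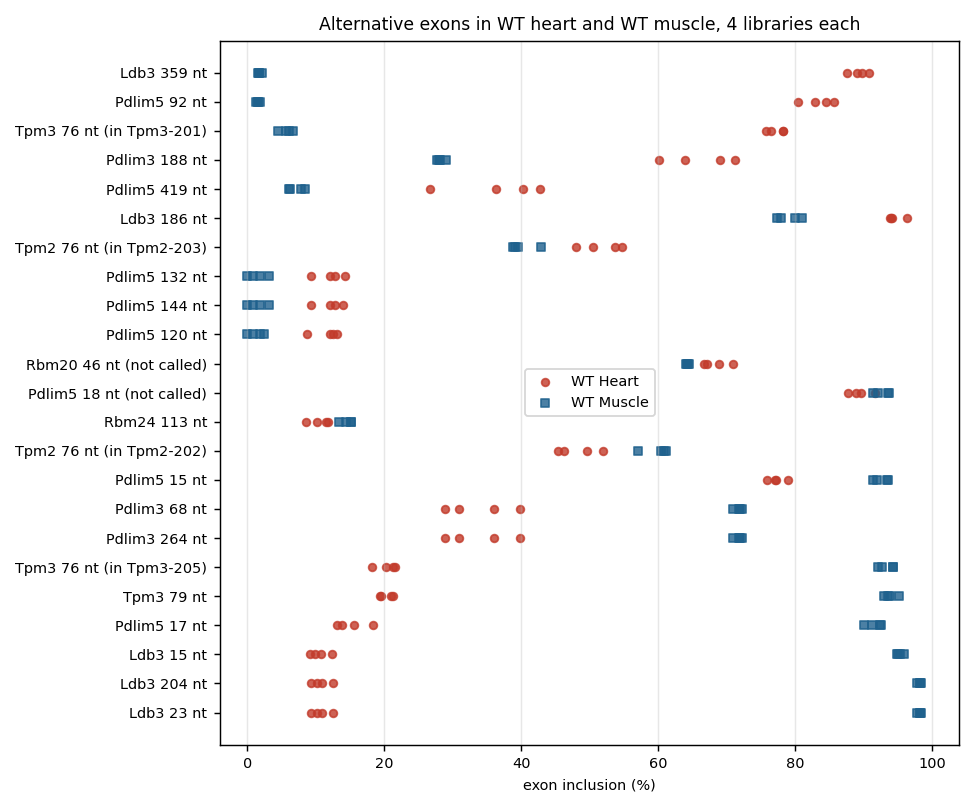
Inclusion (%) of the 23 tested member exons in WT heart (circles) and WT muscle (squares), 1 point a library, ordered by the difference; exons are named by gene and length in bases. At the top and bottom the 2 tissues lie at opposite ends (Ldb3 359 bases, 89.3% and 1.80%), and the 2 exons marked as not called, of Rbm20 and Pdlim5, differ by 4.11 and -3.23 percentage points.

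Genes of the same structures and regulators were also compared between WT heart and WT muscle. Over all genes tested, 63.2% were called. Of 34 tested partners of the Z-disc and thin filament, 10 were called higher and 22 lower in heart and 2 were not called (median log2 difference -1.15, against -0.03 over all genes). The 4 with the smallest p were Neb, the nebulin ruler of the thin filament (26.5 ± 3.53 and 2041 ± 44.4 TPM, SD, n = 4), Myot (25.4 and 828), Myoz3 (1.44 and 103) and Tmod4 (18.6 and 447), all lower in heart. Of 19 muscle splicing regulators tested, 4 were called higher and 6 lower in heart, and 9 were not called. Rbfox1 stood at 15.7 TPM in heart and 109 in muscle and Mbnl1 at 31.1 and 149, whereas Rbpms (69.2 and 7.36) and Rbpms2 (18.1 and 2.87) were higher in heart. Of 12 other genes known as RBM20 targets, 6 were called higher in heart, among them Ryr2 (127 and 2.55 TPM) and Cacna1c (52.4 and 1.47), 5 lower, among them Rtn4 (43.3 and 838) and Trdn (194 and 696), and 1 was not called. These are gene levels and do not measure splicing, which was not compared for the targets.

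Across the 16 WT libraries, the genes with the most similar log2 TPM pattern were found by Pearson's r among 10147 genes. For Ttn these were Tmem38a, Mypn and Nrap (r = 0.9994 to 0.9991), for Ldb3 Mlf1, Synpo2l and Art1 (0.9992 to 0.999) and for Tpm1 Fbxo40, Trim54 and Mlf1 (0.9988 to 0.9983). For Rbm24 they were Hrc, Nexn and Smpx (0.9978 to 0.9976), for Pdlim5 Nexn, Vwa7 and Hspb6 (0.9977 to 0.9966) and for Rbm20 Kremen1, Myoz2 and Mb (0.9959 to 0.9925). Pdlim3 was most like Slc9a2 and Jph1 (0.9978 and 0.9968) and Tpm2 like Lrrc38, Myoz3 and Gm43063 (0.9981 to 0.9979). Tpm4 was most like Msn, Hspa12a and Wdr1 (0.9928 to 0.9831), and Tpm3 like Aurka, 5031439G07Rik and Naa50 (0.9851 to 0.982). The libraries form 4 tissue groups, so each r mainly reflects 4 tissue means.

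The second question was whether the knockout changed these genes or their splicing within a tissue. No member gene was called in BAT, heart, liver or muscle by limma (0 of 10 in each), where 0%, 0.15%, 4.16% and 0.0085% of all genes tested were called. At an unadjusted p under 0.05, 6 members stood in BAT, 2 in heart, 1 in liver and 2 in muscle. Over all genes tested, 2369 of 12150 stood there in BAT, 1399 of 12019 in heart, 3102 of 11994 in liver and 913 of 11771 in muscle. No member transcript share was called either, of 17 tested in BAT, 23 in heart, 14 in liver and 20 in muscle (backgrounds 0%, 0.0322%, 0.0231% and 0.0132%). At an unadjusted p under 0.05 stood 1, 1, 0 and 3 member shares. Over all shares tested these counts were 1279 of 16721, 899 of 15523, 2063 of 17299 and 865 of 15119. No exon inclusion was called, of 19, 23, 19 and 15 tested (backgrounds 0%, 0.0216%, 0% and 0.022%), with 0, 0, 0 and 3 at an unadjusted p under 0.05. Over all exons tested these counts were 372 of 4809, 338 of 4620, 631 of 4803 and 315 of 4545. In no tissue did the WT and Mut libraries of a member gene fail to overlap, where 9.41% of all genes in BAT, 7.53% in heart, 16.4% in liver and 4.49% in muscle had such separate groups.

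In BAT all 10 members had a higher mean in Mut, by 0.10 to 0.49 on the log2 scale (median 0.37, against 0.09 over all genes; adjusted p 0.165 to 0.684, limma). Tpm1 measured 325, 338, 382 and 361 TPM in the WT libraries and 404, 695, 517 and 341 in the Mut libraries, and Ttn 2.96, 3.01, 3.11 and 3.12 against 4.59, 5.49, 3.98 and 2.80. For both genes the Mut 2 library was the highest and the Mut 4 library overlapped WT. The 11 fast-fibre markers moved with them: they summed to 1646 to 1793 TPM in WT BAT and to 2419, 3752, 2572 and 1484 TPM in Mut libraries 1 to 4, and none was at 0 in any library. Other markers also had higher means in Mut BAT without a call: 5 of 5 for macrophages (sums of 54.5, 87.5, 296 and 177 TPM in WT and 282 to 366 in Mut), 6 of 6 for fibroblasts (149 to 267 and 323 to 574) and 5 of 5 for red blood cells (2096 to 3864 and 4081 to 6221). Tpm4 was likewise lowest in BAT WT 1 and 2, at 31.2 and 33.3 TPM against 64.5 and 52.1 in WT 3 and 4. BAT Mut 1 stood apart in slow-fibre RNA, with 16.4 TPM of Tnni1 against 0.979 to 1.09 in the other Mut libraries, 14.0 of Tpm3-205 against 0.797 to 0.893, and 113 of Tpm2 against 51.7 to 67.4. Without it the Tpm2 difference was 0.11 instead of 0.35, and without Mut 2 that of Tpm1 was 0.24 instead of 0.43. The part of these markers in the member differences was not tested.

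In heart all 10 members had a lower mean in Mut (median log2 difference -0.16, against -0.11 over all genes; adjusted p 0.413 to 0.958, limma). The largest was Pdlim3 at -0.46 (95% interval -0.90 to -0.02), with 13.4, 21.7, 20.8 and 24.8 TPM in WT and 14.0, 15.0, 18.8 and 9.99 in Mut. After median-ratio scaling, which brought the median of all genes to 0.00, Ldb3, Pdlim5, Tpm4 and Ttn had positive differences (0.02 to 0.12). The heart groups also differed in atrial markers: all 5 were called lower in Mut (lowest adjusted p = 0.00401), with sums of 330 to 3327 TPM in WT and 22.6 to 88.8 TPM in Mut. Ventricular markers had a lower mean in Mut for 7 of 8, with none called, and summed to 21129 TPM in Mut 2 against 29851 to 32054 in the other Mut libraries. Red-cell markers summed to 26213 TPM in Mut 4, the library with the lowest Pdlim3 and Rbm24, against 3248 to 6720 in the other Mut libraries. Without Mut 4 the Pdlim3 difference was -0.30 and that of Rbm24 was -0.11 instead of -0.20. How much atrium each sample held was not given, and the part of these markers in the heart values was not tested.

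In liver the differences ran from -0.13 for Pdlim3 to 0.27 for Tpm4 (adjusted p 0.188 to 0.973, limma). The lists fixed for the same structures had 0 calls for Z-disc and thin filament partners in any tissue (32, 33, 31 and 34 tested in BAT, heart, liver and muscle; 0 at the adjusted threshold, lowest adjusted p 0.123, 0.38, 0.11 and 0.568). The splicing regulators had 1 call of 19 tested in liver (4.16% of all genes were called there), Mbnl1 at 25.8 ± 1.11 TPM in WT and 37.2 ± 2.58 in Mut (SD, n = 4; adjusted p = 0.0189, limma). By gene level, not splicing, the RBM20 targets had 3 calls of 10 tested in liver, all higher in Mut. So were 453 of the 499 genes called in liver. Among the 3 targets were Rtn4 at 75.9 TPM in WT and 116 in Mut and Lmo7 at 13.3 and 17.6 (adjusted p = 0.0254 and 0.0442, limma). In liver 3 of 6 fibroblast markers and 1 of 5 macrophage markers were called higher as well, and their part was not tested.

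**Figure D4:**
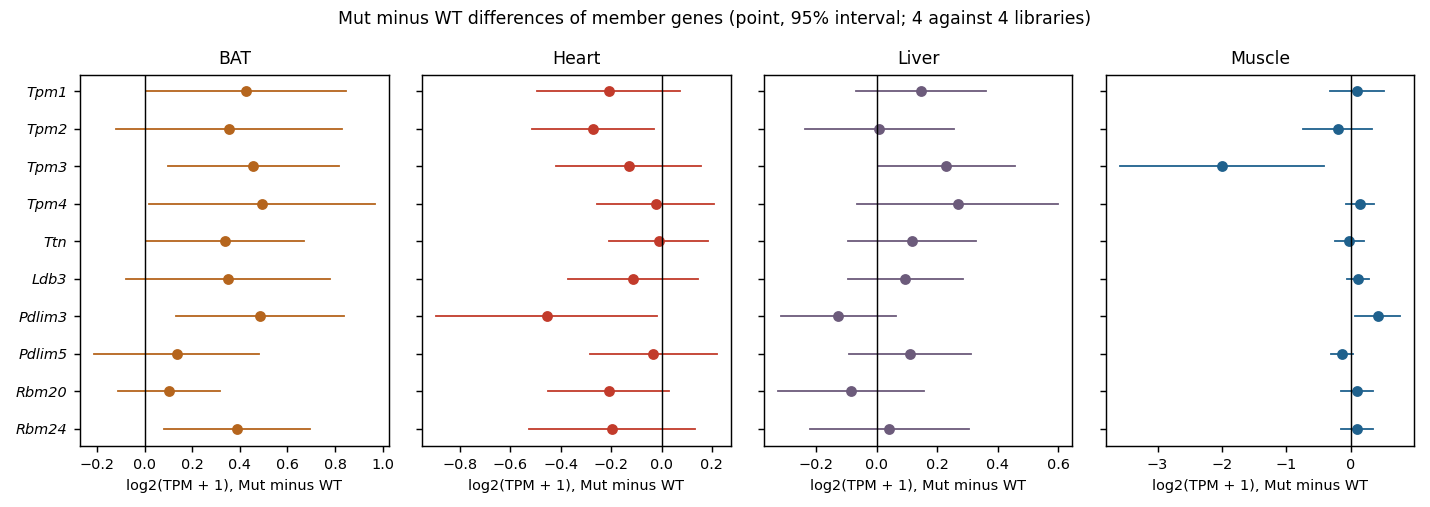
Mut minus WT differences in log2(TPM + 1) for the 10 genes in each tissue (points; lines are 95% intervals; 4 against 4 libraries; each panel has its own horizontal scale). With TPM as deposited, all points lie above 0 in BAT and below 0 in heart (4 heart points turn after median-ratio scaling), and Tpm3 in muscle (-2.0) has the widest interval (-3.59 to -0.42).

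In muscle Tpm3 varied strongly among the Mut libraries. It measured 167, 194, 249 and 165 TPM in WT and 224, 21.2, 13.8 and 70.2 in Mut, so Mut 1 lay within the WT range and the other 3 below it (log2 difference -2.0, SE 0.708, adjusted p = 0.574, limma). Most of this spread was in Tpm3-205, which measured 148, 174, 225 and 142 TPM in WT and 192, 4.7, 0.9 and 46.7 in Mut. Its share was 85.8 to 90.5% in the WT libraries and 85.6%, 22.1%, 6.5% and 66.5% in Mut 1 to 4 (log2 ratio difference -3.32, 95% interval -5.84 to -0.79, adjusted p = 0.836). The exon of Tpm3-205 printed above was included at 92.1 to 94.3% in WT and at 92.1%, 38.7%, 23.0% and 76.3% in Mut (adjusted p = 0.601).

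Genes of slow fibres were also low in the Mut muscle libraries 2, 3 and 4. Myh7, the slow myosin heavy chain, stood at 118 to 173 TPM in WT and at 189, 7.26, 1.45 and 48.8 in Mut 1 to 4, Tnnt1 at 181 to 262 and at 258, 13.1, 6.43 and 86.7, and Tnni1 at 79.3 to 140.3 and at 130.5, 5.55, 1.24 and 28.4. The 7 slow markers summed to 1598 to 2227 TPM in WT and to 2055, 396, 369.9 and 1139 in Mut; none of the 7 was called and all 7 had a lower mean in Mut. Their order over the Mut libraries was that of Tpm3 except for Myl3, which was lower in Mut 2 (82.2 TPM) than in Mut 3 (91.9). Among the WT libraries the order was not the same for all of them. Which muscle was taken was not given, and the part of fibre composition in the Tpm3 values was not tested. Tpm3-201 stood at 0.6 to 1.2 TPM in WT muscle and at 0.6, 2.9, 6.7 and 1.8 in Mut, so its highest value stayed far below the Tpm3-205 level of any WT muscle library.

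Pdlim3 and Tpm2 differed in the same libraries. Pdlim3 measured 344, 351, 311 and 377 TPM in WT muscle and 362, 590.4, 545 and 392 in Mut, highest in Mut 2 and 3 (log2 difference 0.42, 95% interval 0.07 to 0.77, adjusted p = 0.577, limma). Tpm2 measured 1746, 2799, 2569 and 2145 in WT and 3004, 1419, 1573 and 2290 in Mut, lowest in Mut 2 and 3. Their isoforms did not follow the gene levels: the share of Pdlim3-203 was 69.8 to 71.1% in WT and 70.6 to 71.4% in Mut muscle, and that of Tpm2-202 was 55.6 to 59.4% and 55.0 to 56.1%. The 11 fast-fibre markers summed to 97186 to 122690 TPM in WT muscle. In Mut 1 to 4 they summed to 92007, 147160, 138950 and 111070, also highest in Mut 2 and 3. Of the 11, 9 had a positive log2 difference and 0 were called. The part of fibre composition in the Pdlim3 and Tpm2 values was not tested.

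**Figure D5:**
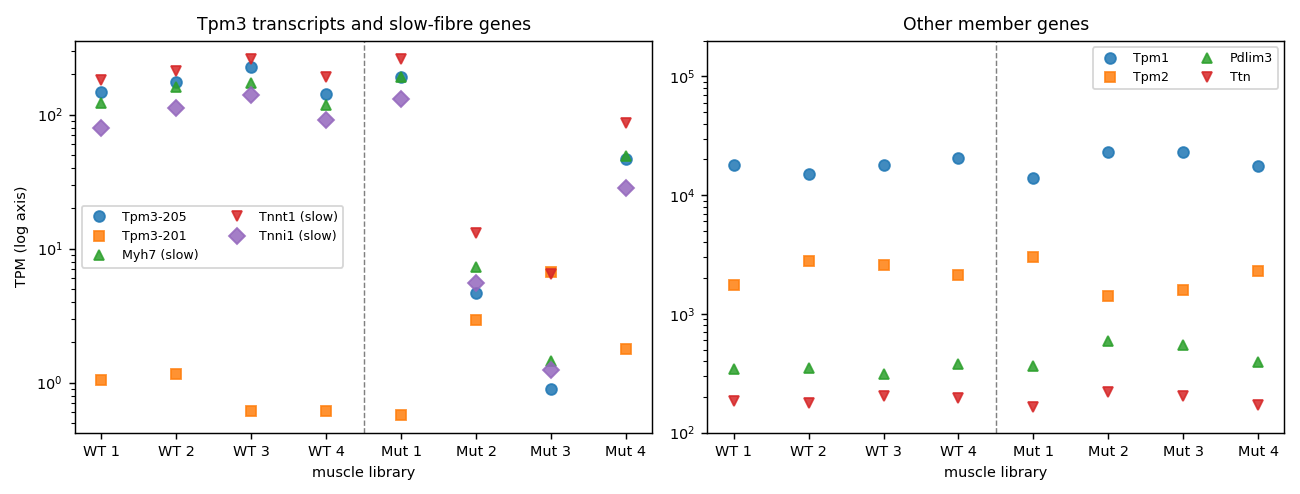
TPM on log axes in each of the 8 muscle libraries. Left: Tpm3-205, Tpm3-201 and the slow-fibre genes Myh7, Tnnt1 and Tnni1; right: Tpm1, Tpm2, Pdlim3 and Ttn. Tpm3-205 and the 3 slow-fibre genes are low together in Mut 2, Mut 3 and Mut 4 and within or above the WT range in Mut 1.

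Whether the Mut minus WT difference itself differed between tissues was tested with a tissue by genotype term over all 32 libraries. It was called for 2 of the 10 genes, Tpm3 (differences of 0.46 in BAT, -0.13 in heart, 0.23 in liver and -2.0 in muscle, F = 6.77) and Pdlim3 (0.49, -0.46, -0.13 and 0.42, F = 6.77), each with an adjusted p of 0.0346 from limma, where 6.03% of 14367 genes tested were called. Neither was called without the filter on low values. Leaving out 1 library left between 0 and 4 members called. The Tpm3 call was lost in 11 of these 32 fits, among them those without Muscle Mut 2 (adjusted p = 0.0797) and Muscle Mut 3 (adjusted p = 0.0706), and the Pdlim3 call in 11, among them that without Heart WT 4 (adjusted p = 0.0781). Without Muscle Mut 1, the Mut library within the WT range, the F of Tpm3 was 27.8 (adjusted p = 2.20e-05). The interaction fit used 1 estimate of spread per gene for all tissues. The SD of Tpm3 was 97.8 TPM in Mut muscle, 39.2 in WT muscle and 2.24 in WT heart. Its interaction p thus does not carry the spread of muscle alone, where the adjusted p of Tpm3 was 0.574 (limma).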

How the data were processed

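Strand-specific libraries were made from total RNA, per the labels' protocols. The authors deposited TPM per transcript, made with Salmon per the submitters' processing notes (version, options and transcriptome release not given in the sources used here). Of 147493 transcript IDs, 136081 (92.26%) matched GENCODE M21, mostly at other versions, and gave 51510 genes. Unmatched IDs held 0.451% to 0.896% of TPM. Sequences came from the M21 transcripts.

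Genes were tested as log2(TPM + 1) at a mean of at least 1 TPM. Shares and exon inclusion were tested as log2 ratios with 0.5 TPM added to both sides. For Mut minus WT, genes averaged at least 5 TPM and mean shares or inclusions were 5 to 95%. For heart against muscle, genes averaged at least 5 TPM in both tissues. The mean share or inclusion was then at least 5% in 1 tissue and at most 95% in 1. limma 3.58.1 (R 4.3.3) with a mean-variance trend was used, and p-values were adjusted over all features tested. Each tissue was fitted alone for Mut minus WT, gene levels of WT tissues in 1 fit of 16 libraries, and heart against muscle shares and exons in a fit of those 8. Scripts were tested on simulated data. No libraries were identical. TPM gives no depth, so no counting error is given, and p-values reflect the spread between these mice.

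Members, lists and the naming rule were chosen with earlier results of these data known. Named were all 10 genes, transcripts with a share of at least 10% in a group, the tested exons, the 3 most similar genes of each member and up to 4 genes per list by smallest p. Of these, 2 genes are not reported here. Alternatives were other pseudocounts, filters and scalings, no trend, coding transcripts only, percentages, 1 fit over all 32 libraries, a replicate block and each library left out.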

Additional observations from a re-analysis of the deposited data

Results flagged for a closer look

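In 80 groups of 4 libraries, 2 had a library whose gap to the nearest other, divided by the range, exceeded Dixon's 95% critical value, where chance gives about 1 in 20. Pdlim5 in WT heart was lowest in WT 1, at 274.2 TPM against 317.4 to 320.0 in the others (ratio 0.944). Rbm24 in Mut heart was lowest in Mut 4, at 62.64 TPM against 79.32 to 81.58 (ratio 0.88).

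The Mut minus WT difference of Tpm3 differed between tissues (limma interaction, adjusted p = 0.0346), with a lower mean in Mut muscle and heart and a higher one in BAT and liver. That of Pdlim3 did as well (adjusted p = 0.0346), with a higher mean in Mut BAT and muscle and a lower one in heart and liver. Neither was called within a tissue.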

How the results depend on the processing

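No genotype call of a member gene changed except in BAT, where 1 fit over all 32 libraries called 1 gene (Ttn, adjusted p = 0.0499) and leaving out 1 library called 0 to 1 (Tpm4 without BAT WT 3). For the interaction, 0 members were called with no filter on low values (adjusted p = 0.0782 for Tpm3 and 0.0711 for Pdlim3), 1 after median-ratio scaling (Tpm3 stayed called, Pdlim3 was lost at an adjusted p of 0.0955) and 0 to 4 with 1 library left out, the 4 without BAT Mut 4. Uncalled log2 differences turned under median-ratio scaling: in heart Ldb3 to 0.0206, Pdlim5 to 0.10, Tpm4 to 0.11 and Ttn to 0.12; in liver Ldb3 to -0.0358, Pdlim5 to -0.0229, Tpm2 to -0.13 and Rbm24 to -0.0583; between WT tissues Tpm4 to -0.0624 (BAT minus heart) and Tpm2 to 0.0036 (heart minus liver). That scaling moved the median gene from -0.11 to 0.0003 in heart, from 0.10 to -0.02 in liver, from 0.10 to -0.01 for BAT minus heart and from -0.14 to -0.02 for heart minus liver. With 1 library left out, uncalled differences that turned spanned -0.0919 to 0.0383 (Pdlim5), -0.0846 to 0.0473 (Tpm4) and -0.0371 to 0.0120 (Ttn) in heart, -0.0626 to 0.0750 (Tpm2) and -0.0268 to 0.10 (Rbm24) in liver, -0.0966 to 0.0449 (Ttn) in muscle and -0.0781 to 0.26 for Tpm4 in BAT minus heart. In 1 fit over 32 libraries Tpm3 was not called for BAT minus heart (adjusted p = 0.262) or heart minus liver (0.0979). Between WT heart and WT muscle, 18 shares were called among coding transcripts; the weak calls of Ttn-202, Rbm24-202 and the Rbm24 exon were lost with a pseudocount of 0.1 TPM (adjusted p = 0.0598, 0.0632 and 0.0578), and the Rbm20 exon was called (0.0368) at a gene filter of 20 TPM. The cause was not tested for any of these.

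The labels' numbers were not taken to pair the libraries, since in no comparison did every same-numbered pair correlate above 0.1: deviations correlated at -0.34 to 0.11 between genotypes and -0.11 to 0.23 between WT tissues. As a hint from the data, 3 of 4 pairs exceeded 0.1 for BAT against heart, and 3 of 4 libraries correlated best with their own number for heart against muscle and for BAT against liver. With the number as a replicate block there were 0 genotype calls of members, 2 interaction calls, and 9 genes, 19 shares and 20 exons called between heart and muscle. The calls lost were Ttn-201 (adjusted p = 0.0547), Ttn-202 (0.0863), Rbm24-202 (0.0961) and the Rbm24 exon (0.0901).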
